A study of Mus musculus with 2 samples.

Results

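A set of 10 genes of MHC class I antigen presentation was followed across the arrays: B2m, H2-T23, H2-K1, H2-D1, Tap1, Tap2, Tapbp, Psmb8, Psmb9 and Nlrc5. They were chosen by name, and 7 of the 10 had a named probe, out of 10208 named genes on the array. For H2-K1, H2-D1 and Nlrc5 no probe is named, and they are not analysed here. RNA came from mouse haematopoietic progenitor cells deficient for E2A, the gene (Tcf3) that encodes the transcription factor E47. The cells of 1 group were infected with E47ER and those of the other with bHLHER, and both were treated with 4-hydroxytamoxifen for 6 h, starting 48 h after infection. The ending ER in both names is the usual one for fusions to the oestrogen receptor, which 4-hydroxytamoxifen binds and switches on. No probe is named for Tcf3, so the deficiency could not be checked on these arrays. The label of the bHLHER sample calls its cells haematopoietic without the word progenitor. The labels state neither strain, age nor number of animals. Each group was 1 array, with no uninfected or untreated array, so no difference below has a replicate check and none carries a p-value. A gene higher with E47ER could be raised in that group or lowered in the bHLHER group.

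Class I molecules carry peptides from inside the cell to its surface, where T cells and natural killer cells read them. The proteasome cuts proteins into peptides, and Psmb8 and Psmb9 encode catalytic subunits of its interferon-inducible form, the immunoproteasome. Tap1 and Tap2 encode the subunits of the pump that moves peptides into the endoplasmic reticulum. There tapasin (Tapbp) holds the pump next to an empty class I molecule, made of a heavy chain such as H2-K, H2-D or Qa-1 (H2-T23) and the light chain beta-2-microglobulin (B2m). Nlrc5 is a transactivator of class I promoters. Nearly all nucleated cells use this pathway, and interferons raise most of its genes.

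The values were deposited intensities of single probes, linear and in arbitrary units. A probe counted as measured when it was brighter than its array's own median over all probes, 0.957 for E47ER and 0.953 for bHLHER, which is called the floor. A gene counted as higher or lower at a ratio of at least 2-fold, which is a limit on size that involves no test. Of the 7 genes with a probe, 6 were above the floor on both arrays and 1, Tapbp, was below it on both. Among the 6, 1 passed this limit upward with E47ER, none passed it downward and 5 lay between. Over all 5534 named genes measured on both arrays, 2.31% were higher by 2-fold or more and 0.813% lower by as much, 3.13% in all. The 1 gene of 6 is too few to set apart from that background. The median log2 ratio of E47ER over bHLHER was 0.22 for the 6 genes and -0.05 for all measured genes. Of the 6, 3 had ratios above 0 and 3 below, beside 44.2% of all measured genes above 0. The class I ratios thus lay on both sides of 0.

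**Figure D1:**
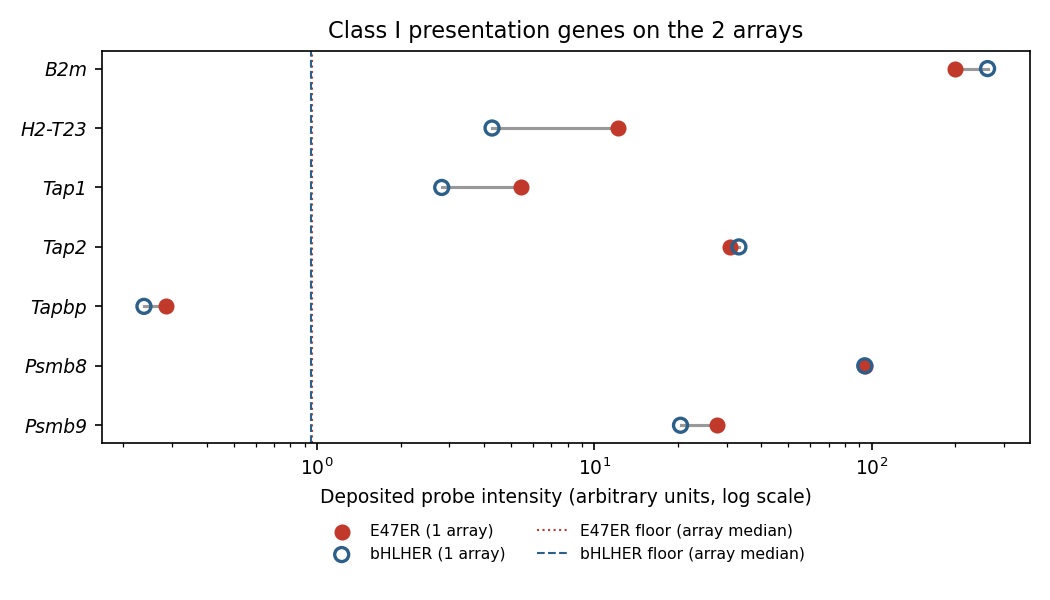
Probe intensity (x axis, arbitrary units, log scale) of the 7 class I presentation genes with a named probe, 1 filled point for the E47ER array and 1 open point for the bHLHER array, with each array's floor as a vertical line. H2-T23 and Tap1 show the widest gaps, at 12.2 against 4.27 and 5.43 against 2.81, the Psmb8 points coincide near 94.4, and Tapbp lies below both floors.

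The light chain and the heavy chain with a probe had ratios on opposite sides of 0. H2-T23 encodes the heavy chain of Qa-1, a non-classical class I molecule that displays leader peptides of other class I chains to CD94/NKG2 receptors of natural killer cells. Its probe read 12.2 on the E47ER array and 4.27 on the bHLHER array, a 2.86-fold difference and the only one of the 6 past the threshold. Only 53 of the 5534 measured genes had a higher ratio. B2m, the light chain that class I heavy chains need to fold and reach the surface, read 199.8 on the E47ER array and 262 on the bHLHER array. It was thus 1.31-fold lower with E47ER, short of the threshold, and 854 genes had a lower ratio. The log2 ratios of H2-T23 (1.51) and B2m (-0.39) differ by 1.91, a gap that no rescaling of a whole array by 1 factor can change. Mouse class I heavy chain genes form a family of close copies, and the files hold no sequence for the H2-T23 probe, which may also read relatives. In bulk RNA, fewer cells of a type and less RNA per cell cannot be told apart.

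The subunits of the peptide pump differed from each other. Tap1 read 5.43 on the E47ER array and 2.81 on the bHLHER array, 1.93-fold higher with E47ER and just short of the threshold at a log2 ratio of 0.95. Of all measured genes, 146 had a higher ratio. Tap2 had 30.8 with E47ER and 33.2 with bHLHER, a log2 ratio of -0.11. The Tap1 and Tap2 proteins work only as a pair, yet their log2 ratios differed by 1.06. Tapbp, which encodes tapasin, had 0.284 with E47ER and 0.237 with bHLHER. Both values lie under the floor, so its probe gave no usable comparison, and a dim probe does not show that the gene was silent.

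Of the immunoproteasome subunits, Psmb8 was level and Psmb9 slightly higher with E47ER. Psmb8 read 94.4 on the E47ER array and 94.5 on the bHLHER array, a log2 ratio of -0.00058. Psmb9 had 27.7 with E47ER and 20.4 with bHLHER, 1.36-fold higher and short of the threshold, with 539 genes at a higher ratio. Both subunits replace constitutive partners in newly built proteasomes, Psmb5 for Psmb8 and Psmb6 for Psmb9. Psmb5 had a log2 ratio of -0.16 and Psmb6 one of -0.06.

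From H2-T23 down to B2m, the order of the log2 ratios was H2-T23 (1.51), Tap1 (0.95), Psmb9 (0.44), Psmb8 (-0.00058), Tap2 (-0.11) and B2m (-0.39). The only spread the files hold is that between probes of the same gene. In 34 genes with a pair of measured probes, the log2 ratios of the pair differed by a median of 0.236 and with an SD of 0.758, or 0.376 without Sapcd1, the widest pair. Such a spread says nothing of how separate cultures vary. Of the 15 pairs among the 6 genes, 14 differed by more than 0.236, 13 by more than 0.376 and 8 by more than 0.758. The 15 pairs reuse 6 values and are not independent. The same count was not made for pairs drawn from all measured genes, whose log2 ratios had a 25th percentile of -0.27 and a 75th of 0.18. The counts thus do not set the class I genes apart from other genes. Psmb8 and Tap2, neighbours in the order, differed by 0.11 and so by less than probes of the same gene usually did. Tap1 and Psmb9 differed by 0.51 and H2-T23 and Tap1 by 0.57, both under the SD of 0.758 and over the 0.376 without Sapcd1.

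**Figure D2:**
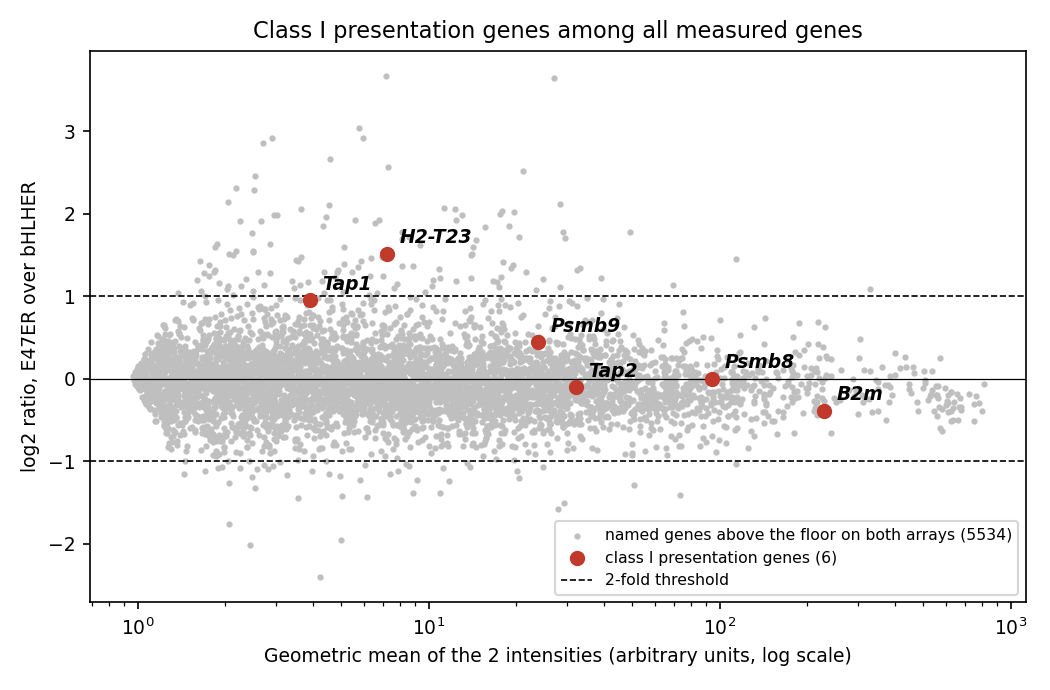
Log2 ratio of E47ER over bHLHER (y axis) against the geometric mean of the intensities on both arrays (x axis, arbitrary units, log scale) for 5534 measured genes in grey and the 6 measured class I genes in red, with dashed lines at 2-fold. H2-T23 lies above the upper line at 1.51, Tap1 just under it at 0.95, and the other 4 lie within the bulk of genes between -0.39 and 0.44.

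The promoters of H2-T23, B2m and the Tap1 and Psmb9 pair are shown because H2-T23 and B2m had the highest and the lowest ratio, and because Tap1 and Psmb9 start head to head from the same short stretch. Sequences are those of RefSeq on GRCm38.p6, and 8 of the 10 genes had a promoter window in that table. Each line gives the bases upstream of the start, 5′ to 3′ along the gene. The last line gives the 225 bases between the starts of Psmb9 and Tap1, read along Tap1. Capitals mark matches on either strand. The motifs were the E-box CANNTG, the interferon response motif, which is GAAA repeated after any 2 bases, and the Y box ATTGG. The others were the X2-like motif TGACG and GGGNNTTCC, a form of the kappaB motif. The coordinates are chr17:36032702-36032951 on the minus strand for H2-T23, chr2:122147437-122147686 on the plus strand for B2m and chr17:34187331-34187555 on the plus strand for Tap1.
H2-T23: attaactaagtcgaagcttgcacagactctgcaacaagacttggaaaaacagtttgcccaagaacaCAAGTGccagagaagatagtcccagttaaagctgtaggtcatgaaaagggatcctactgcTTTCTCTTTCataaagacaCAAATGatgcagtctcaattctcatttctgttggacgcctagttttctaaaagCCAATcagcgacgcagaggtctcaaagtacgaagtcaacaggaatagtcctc
B2m: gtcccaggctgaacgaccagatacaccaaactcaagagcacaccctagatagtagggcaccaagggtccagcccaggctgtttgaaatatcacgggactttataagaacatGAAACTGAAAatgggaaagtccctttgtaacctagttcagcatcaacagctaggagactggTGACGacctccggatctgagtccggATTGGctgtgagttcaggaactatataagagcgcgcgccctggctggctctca
Tap1 and Psmb9: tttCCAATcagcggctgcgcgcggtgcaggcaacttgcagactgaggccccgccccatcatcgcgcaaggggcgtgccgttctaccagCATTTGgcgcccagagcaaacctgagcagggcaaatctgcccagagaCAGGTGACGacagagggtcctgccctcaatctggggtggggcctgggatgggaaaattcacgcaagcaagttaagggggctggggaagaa

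E proteins such as E47 bind E-boxes, interferon regulatory factors bind the interferon response motif, and the X2 and Y boxes belong to the module through which Nlrc5 acts on class I genes. In windows from 250 bases before to 50 after the start, the E-box was found for 3 of the 5 measured genes that had a window, H2-T23, Tap1 and Psmb9, and not for B2m or Psmb8. It occurs in 72.3% of all 32851 promoter windows in the table, so its presence says little. The form CAGGTG, found in 20.2% of all windows, occurred for Tap1 and Psmb9, once, in the stretch they share. It begins 90 bases before the Tap1 start and overlaps the TGACG match there by 2 bases. CAGCTG, in 16.3% of all windows, occurred in none of the 5. H2-T23 and B2m each had 1 interferon response match, a motif in 3.44% of all windows. The Y box letters, in 37.4% of all windows, were found for B2m, H2-T23, Tap1 and Psmb9. TGACG, in 20.8%, was found for B2m, Tap1 and Psmb9. For B2m, a TGACG match and the Y box letters began at -78 and -53 from the start. They lay further apart for Tap1, at -86 and -222, and for Psmb9, at -144 and -8. Whether any of these matches form the module was not tested. GGGNNTTCC, in 5.82%, was found for none of the 5 measured genes, but the windows of H2-K1 and H2-D1, which had no named probe, each held 1. These are matches of letters and not binding sites.

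Psmb9, Tap1, Psmb8 and Tap2 stand next to each other on chromosome 17, in this order, inside the class II region of the MHC. Their log2 ratios in that order were 0.44, 0.95, -0.00058 and -0.11, so the genes that share the divergent start were the higher pair. The starts of Tap1 and Psmb9 lie 226 bases apart, and their promoter windows overlap by 275 of 300 bases. Of the nearest 5 protein-coding genes on either side, picked by position after the values were seen, 3 were measured on both arrays. H2-Oa, H2-DMa and H2-Ob, which encode subunits of the proteins that govern class II peptide loading, had log2 ratios of -0.29, -0.21 and -0.09. H2-T23 lies elsewhere in the MHC. Of its nearest 5 on either side only H2-T24, another class I gene, had a named probe, and it was below the floor on both arrays at 0.480 with E47ER and 0.453 with bHLHER.

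Around these genes, 9 lists of related genes held 188 others, of which 131 had a value and 93 were measured on both arrays. Of the 93, 6 (6.45%) were 2-fold or more higher with E47ER, 87 lay between and none was lower by that much, beside 2.31% of all measured genes that were at least 2-fold higher. Their median log2 ratio was -0.07, beside -0.05 for all genes. The 6 were Tapbpl, Irf1, Irf7, Irf8, Jak2 and Ctsl. The lists were chosen with earlier results of these data known, so 6.45% beside 2.31% cannot count as enrichment.

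Among class I heavy chains and their relatives, 8 of 18 genes with a value were measured on both arrays, and H2-T23 was the only one past 2-fold. The list's median log2 ratio was 0.03. H2-M3, a non-classical chain that presents formylated peptides, had 6.77 with E47ER and 4.70 with bHLHER, a log2 ratio of 0.53. H2-Bl, another heavy chain gene, had 5.68 and 4.56, a log2 ratio of 0.32. Cd1d1, which presents lipids to natural killer T cells, had 1.53 and 2.25, a log2 ratio of -0.55. The other 10 relatives, H2-Q7, H2-Q8, H2-Q10, H2-T10 and H2-T24 among them, were below the floor on both arrays.

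In the peptide-loading list 13 of 17 genes were measured on both arrays and Tapbpl alone passed 2-fold, with a list median of 0.13. Tapbpl encodes TAPBPR, a relative of tapasin that edits class I peptides outside the loading complex. It read 10.5 on the E47ER array and 3.82 on the bHLHER array, 2.75-fold higher. Among the general folding helpers of the endoplasmic reticulum, Pdia3, which is part of the loading complex, had a log2 ratio of -0.04, Calr 0.14, Canx 0.10 and Hspa5 0.18. Erap1, which trims peptides in the endoplasmic reticulum, had 0.16. The list also holds Ggt7 and Abcb10, which have no settled place in class I loading, and neither passed 2-fold.

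No gene of the proteasome lists passed 2-fold. Of 8 measured genes of the immunoproteasome and its activators, 3 had ratios above 0, and the median log2 ratio was -0.02. Psmb10, the third inducible subunit, had 37.2 with E47ER and 31.4 with bHLHER, a log2 ratio of 0.25. Psme1, a subunit of the interferon-inducible activator PA28, had 0.16, and Pomp, which assembles proteasomes, -0.03. All 27 constitutive proteasome genes with a value were measured, with ratios above 0 for 6 and below 0 for 21. Of all measured genes, 44.2% had ratios above 0. The list median was -0.12, beside -0.05 for all measured genes. After loess normalization these medians were -0.047 and -0.00049. Of the 10 measured peptidases that trim peptides, 8 had ratios below 0, with a median of -0.23 and Nln the lowest at -0.77.

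**Figure D3:**
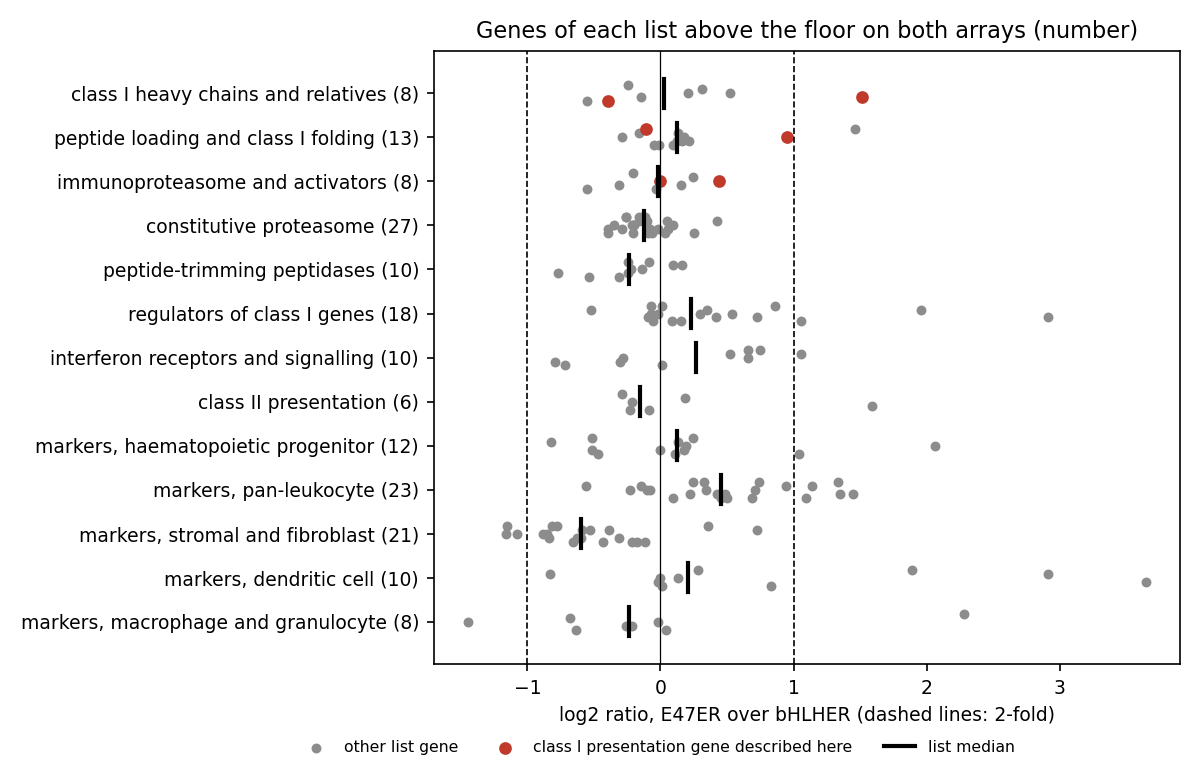
Log2 ratio of E47ER over bHLHER (x axis) for each gene measured on both arrays in 8 pathway lists and 5 marker lists (y axis, number of genes in brackets), with the list median as a black bar, the class I genes described here in red and dashed lines at 2-fold. All 27 constitutive proteasome genes lie between -0.40 and 0.42, while 3 regulators of class I genes lie beyond 1. The list of class I receptors had no gene measured on both arrays and is not drawn.

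Regulators known to act on class I promoters held 3 of the 6 genes past 2-fold. Of 18 measured regulators 3 passed upward and none downward, and the median log2 ratio was 0.23. The 3 were interferon regulatory factors, of which Irf8 had 16.4 with E47ER and 2.17 with bHLHER, Irf7 8.80 and 2.26, and Irf1, a direct activator of class I and Tap1 promoters, 14.1 and 6.76. Irf9 and Stat2, which carry the type I interferon signal together, had log2 ratios of 0.86 and 0.73, below the threshold. The list's other interferon regulatory factors were closer to level or dim. Irf3 had a log2 ratio of -0.02 and Irf5 one of 0.30, and Irf2 was below the floor on both arrays. The partners of Nlrc5 on the class I promoter were closer to level, with log2 ratios of 0.02 for Rfxap, 0.54 for Rfxank, -0.06 for Nfya, -0.09 for Nfyb and 0.42 for Nfyc. Rela had 0.08 and Nfkb2 -0.52. Ciita, the class II counterpart of Nlrc5, was below the floor on both arrays at 0.265 and 0.253.

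In the list of interferon receptors and signalling, 1 of 10 measured genes was at least 2-fold higher and none lower, with a median of 0.27. Jak2, a kinase of the interferon gamma receptor, had 2.39 with E47ER and 1.15 with bHLHER, the latter near the floor, so its 2.08-fold difference rests on a dim value. Usp18, a brake on type I interferon signalling, exceeded the floor on the E47ER array alone and was at least 2.69-fold higher there. Ifnar1 and Ifnar2, the chains of the type I receptor, had log2 ratios of 0.65 and 0.66. Ifnar2 read 1.55 with E47ER and 0.982 with bHLHER, the latter also near the floor. Ifngr1 and Ifngr2, the chains of the interferon gamma receptor, had log2 ratios of -0.30 and -0.71. The interferon genes Ifnb1 and Ifna4 were below the floor on both arrays.

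Class II presentation genes bind and load peptides taken up from outside the cell. Of 6 measured genes of that list only Ctsl, a lysosomal protease with uses beyond class II, passed 2-fold, at 24.6 with E47ER and 8.16 with bHLHER, and the median was -0.15. H2-Aa and H2-Eb1, which encode class II chains, were below the floor on both arrays. None of 10 class I receptor genes with a value was measured on both arrays. Klrd1, the CD94 chain that reads Qa-1, exceeded the floor on the E47ER array alone, where it read 1.61, and was at least 1.69-fold higher there.

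Markers of cell types also differed between the arrays. Of 23 measured pan-leukocyte markers 18 had ratios above 0 and 5 were at least 2-fold higher with E47ER, with a median log2 ratio of 0.46 and a summed intensity of 1093 with E47ER and 663 with bHLHER. Sums here and for the lists that follow run over all genes of a list with a value, measured or not. Of 21 measured stromal and fibroblast markers 19 had ratios below 0 and 3 were at least 2-fold lower, with a median of -0.60 and sums of 403 and 551. Most of both sums came from S100a6 (201.6 against 233.6) and Vim (93.8 against 167.8). The stromal markers Dcn, Lum, Postn and Thy1 were below the floor on both arrays. Of 12 measured progenitor markers 2 were at least 2-fold higher, Il7r (25.2 against 6.05) and Cd33 (6.25 against 3.04), none was at least 2-fold lower, and the median was 0.12. Of the 12, 7 had ratios above 0 and 5 below. Kit and Flt3 had log2 ratios of 0.17 and 0.13, Meis1 had -0.47, Hoxa9 and Spn each had -0.52, and Lmo2 was the lowest at -0.82. Gata2, Sox4 and Mpo were below the floor. The list's 17 genes with a value summed to 107.9 and 98.9. Of 10 measured dendritic cell markers 7 had ratios above 0 and 3 were at least 2-fold higher, Id2 (95.9 against 7.65), Irf8 and Itgax (12.6 against 3.39), with a median of 0.21. The list's sums were 275 and 159, a gap made up mostly of Id2, and Ccr7, Cd83 and H2-Aa were below the floor. The 8 measured macrophage and granulocyte markers had a median of -0.23, with Marco at least 2-fold higher (5.54 against 1.14) and Mmp8 at least 2-fold lower (2.15 against 5.87). Itgam exceeded the floor on the E47ER array alone, and Elane, S100a8 and S100a9 were below it on both. The list's 18 genes with a value summed to 54.2 and 55.7. The part of these shifts in the class I ratios was not tested.

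When all log2 ratios were centred on the pan-leukocyte median, every ratio dropped by 0.46. H2-T23 then had 1.06 and was still past the threshold, Tap1 had 0.49, and Psmb9 turned to -0.02. Psmb8, Tap2 and B2m had -0.46, -0.56 and -0.85. The median of the 6 turned to -0.24, beside -0.51 for all measured genes. Of the 93 other pathway genes, 4 were then at least 2-fold higher, Tapbpl, Irf7, Irf8 and Ctsl, and 5 at least 2-fold lower, Cd1d1, Ifngr2, Nln, Psmg3 and Ptpn2. With the same centring 1.08% of all measured genes were higher and 7.63% lower by that much.

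**Figure D4:**
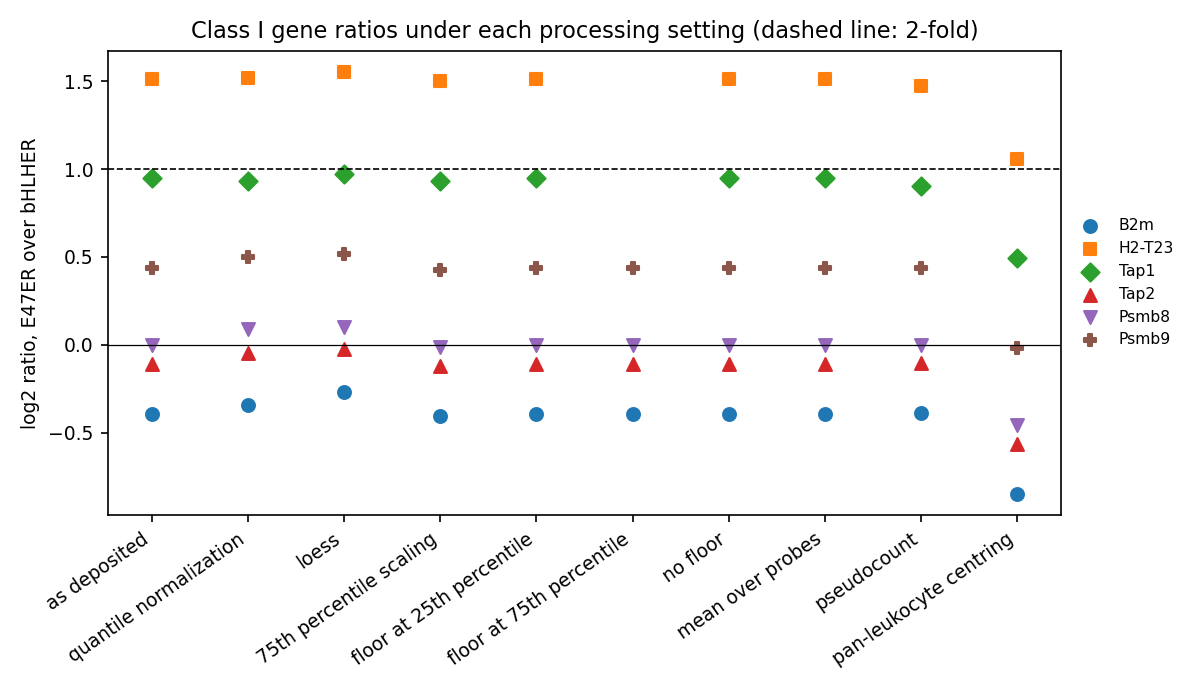
Log2 ratio of E47ER over bHLHER (y axis) of the 6 measured class I genes under the deposited scale and 9 alternative settings (x axis), with a dashed line at 2-fold. H2-T23 stays above the line wherever it is measured on both arrays, between 1.06 and 1.55, and Tap1 stays under it, between 0.49 and 0.97. Neither is measured on both arrays with a floor at the 75th percentile.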

How the data were processed

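RNA was measured on 1-colour CodeLink mouse 20k arrays (Cy5), per the labels, with 1 array for E47ER and 1 for bHLHER. The deposited table held a linear intensity for each of 20289 probes. Its 2 medians differed by 0.418%. No source used here states how they were scaled or whether background was removed, and the deposited intensities were taken unchanged. Probes without a value, 119 and 125, stayed out, and a probe at or below 0, as 45 and 84 were, gave no ratio. The platform annotation named 10349 probes, all matched by gene ID to RefSeq (GRCm38.p6), which gave current symbols; 9940 probes are unnamed here. For several probes, the brightest over both arrays was taken.

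The members and lists were chosen with earlier results of these data known. Named genes are all members, pathway genes past 2-fold and up to 6 bright genes per list; other genes were picked after their values were seen. The calling steps were also run on simulated data, whose outcome is not reported here and cannot stand in for replicate arrays. Alternatives were loess (span 0.3) and quantile normalization (limma 3.58.1, R 4.3.3), floors at the 25th percentile, the 75th or none, 75th percentile scaling, the mean over probes, a pseudocount of each array's 25th percentile, a log2 threshold of 1.5 and centring on pan-leukocyte markers. Ratios were computed with pandas 2.3.3 (Python 3.11.15). No sample columns were left unused. The number of arrays limits the precision.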

Additional observations from a re-analysis of the deposited data

How the results depend on the processing

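No paired analysis was possible because there was 1 array a group, which also leaves no replicate to omit. All 10 alternatives planned were run. H2-T23 was at least 2-fold higher in the 9 alternatives that measured it on both arrays. With a floor at the 75th percentile, H2-T23 exceeded it on the E47ER array alone, at 12.2 against a floor of 5.78. On the bHLHER array it read 4.27 against 5.73, and Tap1 was under the floor on both arrays. The count of class I genes measured on both arrays and at least 2-fold higher was then 0 in place of 1, and their median log2 ratio -0.054 over 4 genes. None was at least 2-fold lower in any alternative. Of 58 class I ratios under the alternatives, 52 moved by less than 0.236, the median difference between probes of a gene. The other 6 moved by more, all with the pan-leukocyte centring, where the median was -0.24. Much of this was fixed beforehand. Another floor, the mean over probes or another threshold cannot change the ratio of a measured class I gene, each of which has a single probe. The 75th percentile scaling and the centring shift all ratios alike. Only loess, quantile normalization and the pseudocount could change ratios gene by gene. Psmb8, near 0, changed sign after loess (0.10) and quantile normalization (0.09). The counts of all genes at least 2-fold higher and lower, 128 and 45, became 204 and 77 once the floor was the 25th percentile, 43 and 16 once it was the 75th, 545 and 348 without one, 56 and 6 at a log2 threshold of 1.5, and 60 and 422 with the centring. The 6 higher pathway genes became 2 with the floor at the 75th percentile, 12 with no floor and 3 at a log2 threshold of 1.5. With the centring 5 pathway genes were lower in place of 0, and the pathway median was -0.53. With no floor, the class II list's median turned from -0.15 to 0.43 and that of macrophage and granulocyte markers from -0.23 to 0.02. Fewer or dimmer genes enter with another floor, and the centring lowers every ratio alike.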
